A study of Homo sapiens with 39 samples.

Results

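HCT116 cells, a human colorectal cancer line, that made HNF4alpha12-GFP were compared with HCT116 cells that made HNF4alpha10-GFP. The comparison rests on 6 of the 39 RNA-seq libraries of the series, 3 of isoform 12 and 3 of isoform 10, chosen by the isoform in their labels. It covers 45434 genes, which are all rows of the deposited tables but the 12 that hold HNF4A itself. Of these, 15002 averaged 1 TPM or more across the 39 libraries and were tested (TPM is a transcript level per length, scaled to a fixed sum in each library).

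Hepatocyte nuclear factor 4 alpha (HNF4A) is a nuclear receptor that drives the genes of the mature hepatocyte and enterocyte, among them genes of lipid, bile acid, amino acid and drug metabolism. Its gene has separate promoters and several splice forms. In the standard nomenclature, which is not in the labels, isoforms 10 and 12 share an N-terminal form made from the P2 promoter and differ at the C-terminus. Isoform 12, like isoforms 3, 6 and 9, ends in a shortened C-terminal F domain, a region of the receptor that is known to modulate how it activates transcription.

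Both lines derive from the Flp-In T-REx host of HCT116 and each carries 1 inducible isoform fused to GFP. The parental group is the same host without an HNF4A construct. All of these cells, the parental ones included, had received 2.5 µg/ml doxycycline for 48 h, with the selection antibiotics taken away at that time. Before induction the lines had been kept in blasticidin and hygromycin B and the parental cells in blasticidin and zeocin. Each isoform is represented by 1 stable line and no line made GFP alone, so the isoform and the line cannot be told apart. The labels do not say that the 3 libraries of a line came from separate cultures. The p-values therefore measure the spread between these libraries, which may be technical.

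The level of HNF4A mRNA did not separate the lines. The 12 HNF4A rows summed to 644.4, 626.8 and 712.7 TPM in the isoform 10 line and to 640.0, 669.6 and 723.6 TPM in the isoform 12 line, and the libraries overlapped. The log2 difference was 0.0357 (exact two-sided permutation test, p = 0.6, with 0.1 the smallest p that 3 against 3 libraries allow). In every one of these 6 libraries at least 99.43% of the HNF4A level lay in the row of the labelled isoform. Parental HNF4A came to 31.5 TPM ± 0.589 (SD, n = 3), and at least 86.96% of it in each library was assigned to the isoform 12 row. In the parental cells the host's own HNF4A was thus mostly assigned to the form with the short C-terminus. In the isoform 10 line, from the same host, the isoform 12 row had a mean of only 1.001 TPM, against 27.93 TPM in the parental cells. How much HNF4A the host's own gene gave in either line, and in which form, is therefore not known.

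The 6 libraries were alike in quality. Between 28342 and 29264 genes were above 0 TPM, and across genes the lowest correlation between libraries of one line was 0.995764 on the log2(TPM + 1) scale. Read depth is unknown from TPM, so no counting interval is given. Epithelial genes were present in both lines, with exceptions. The keratin KRT8 had means of 1180 TPM in isoform 10 and 1040 TPM in isoform 12. The intestinal transcription factor CDX2 had 12.5 and 14.2 TPM. Of 12 genes of colorectal epithelial identity, 2 were under 1 TPM in all 6 libraries, and 1 was at 0 in all 6. Markers of other cell types were mostly low, with exceptions. CD68, a lysosomal glycoprotein used to mark macrophages, had means of 16.3 TPM in isoform 10 and 9.26 TPM in isoform 12, and the collagen gene COL1A1 had 12.0 and 10.7 TPM, which is about the level of CDX2. Of 6 leukocyte markers 4 were under 1 TPM in all 6 libraries, and the pan-leukocyte gene PTPRC had means of 0.0473 TPM in isoform 10 and 0.0352 TPM in isoform 12. Likewise under 1 TPM in all 6 libraries were 5 of 7 fibroblast and 4 of 5 endothelial markers.

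Large differences between the lines were mostly lower values in isoform 12. Genes count as called here where the p adjusted by Benjamini-Hochberg (limma) is under 0.05 and the log2 difference is 1 or more in size. Of the tested genes 80 (0.533%) were called between the lines. In isoform 12, 63 of them (0.42%) were lower and 17 (0.113%) were higher than in isoform 10. By the adjusted p alone, 2670 genes (17.8%) passed, and these were 1175 lower (7.83%) and 1495 higher (9.97%). Most differences that passed were thus small, and the excess of lower genes stood only among the large ones. The 3 libraries of one line lay wholly apart from those of the other in all 80 called genes and in 32.6% of all tested genes. In 61 of the 80, the call held whichever of the 6 libraries was left out. These were 52 of the 63 lower genes but only 9 of the 17 higher genes. In such bulk RNA, fewer cells of a kind and less RNA per cell cannot be told apart.

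**Figure D1:**
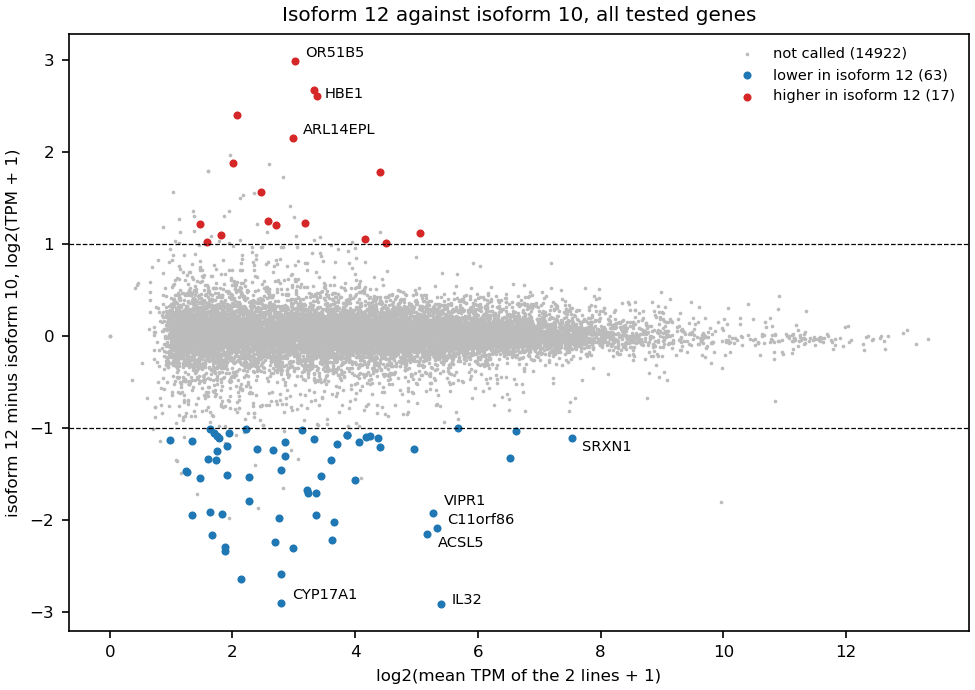
Difference between the lines for each tested gene, isoform 12 minus isoform 10 on the log2(TPM + 1) scale, against its mean level in the 6 libraries. Coloured points are the 63 genes called lower and the 17 called higher, and the lower genes reach further below 0 in number than the higher ones above it.

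The called genes were set beside the parental level. For 55 of the 63 genes called lower, the parental mean lay below the isoform 12 mean, and 29 of the 63 had a parental mean under 1 TPM. A gene under 1 TPM in the parental cells passed the filter only because other lines raised its mean over the 39 libraries. The shares of all tested genes with such parental values were not taken, so these counts describe the list alone. The medians over these genes were 1.43 TPM in the parental cells, 2.66 TPM in isoform 12 and 9.75 TPM in isoform 10. The middle of this list thus stood nearer to the host in the isoform 12 line than in the isoform 10 line. For 13 of the 17 genes called higher, the parental mean lay between the means of the lines. Both lines are set against the same 3 parental libraries here, so these levels are given side by side without a test of likeness.

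Genes of steroid, retinoid and bile acid metabolism were among the largest differences. CYP17A1, a steroid hydroxylase, was at 11.6, 9.38 and 12.9 TPM in isoform 10 and at 0.522, 0.600 and 0.770 TPM in isoform 12. The log2 difference was -2.91 ± 0.17 (SE, adjusted p = 1.48e-13, limma), or 17.9 times less TPM in isoform 12. CYP11A1, which cleaves the cholesterol side chain at the start of steroid synthesis, was at 5.27, 4.43 and 5.56 TPM against 0.229, 0.306 and 0.175 TPM. Parental means were 0.164 TPM for CYP17A1 and 0.0861 TPM for CYP11A1, so that only the isoform 10 line had more than 1 TPM of either gene among these 3 groups. RBP2, the retinol-binding protein of enterocytes, was at 6.14, 4.63 and 4.75 TPM against 0.184, 0.207 and 0.236 TPM. BAAT, which joins bile acids to glycine or taurine, was at 13.7, 11.4 and 11.5 TPM against 1.66, 1.37 and 1.99 TPM. In both genes the lowest isoform 10 library was far above the highest isoform 12 library. The log2 differences were -2.30 ± 0.10 for CYP11A1, -2.34 ± 0.14 for RBP2 and -2.30 ± 0.16 for BAAT (SE).

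VTN, HPD, PIPOX and SLCO2B1 were also among the 12 genes lowest in isoform 12. VTN encodes vitronectin, an adhesive plasma protein made by the liver. It was at 5.85, 5.74 and 8.21 TPM in isoform 10 and at 0.187, 0.227 and 0.194 TPM in isoform 12, a log2 difference of -2.64 ± 0.13 (SE, adjusted p = 1.31e-15, limma). HPD, an enzyme of tyrosine breakdown, was at 10.2, 10.6 and 11.9 TPM against 1.02, 0.778 and 1.15 TPM. PIPOX, a peroxisomal oxidase of sarcosine and pipecolic acid, was at 9.92, 8.50 and 10.5 TPM against 1.46, 1.15 and 1.13 TPM. None of these genes had overlapping libraries. SLCO2B1, an uptake transporter of organic anions, was at 5.06, 3.26 and 4.20 TPM against 0.119, 0.199 and 0.118 TPM. The log2 differences were -2.59 ± 0.11 for HPD, -2.24 ± 0.11 for PIPOX and -2.16 ± 0.14 for SLCO2B1 (SE). For VTN, HPD and SLCO2B1 the difference of isoform 12 from the parental cells did not pass the test. The log2 values were 0.23, 0.25 and 0.15 (adjusted p = 0.247, 0.125 and 0.54, limma). Parental means were 0.0288, 0.661 and 0.0348 TPM, and every isoform 12 library of these genes lay above every parental library. The 1 TPM added before the log shrinks differences at such low levels, so isoform 12 cannot be said to equal the host here. PIPOX was higher in isoform 12 than in the parental cells, at 0.65 (adjusted p = 8.64e-05, limma), as was BAAT at 0.99 (adjusted p = 4.73e-05, limma).

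IL32, ACSL5, C11orf86 and CIDEC were further above the parental level in isoform 12. IL32, the cytokine interleukin 32, was at 75.0, 71.3 and 74.0 TPM in isoform 10, at 9.26, 8.47 and 8.94 TPM in isoform 12, and at a mean of 0.424 TPM ± 0.111 (SD, n = 3) in the parental cells. Its log2 difference between the lines was -2.91 ± 0.15 (SE, adjusted p = 1.45e-14, limma), and isoform 12 was still 2.80 ± 0.15 above the parental cells. ACSL5, which activates long-chain fatty acids, was at 58.0, 54.6 and 61.8 TPM in isoform 10 and at 11.8, 12.1 and 12.8 TPM in isoform 12, against a parental mean of 0.550 TPM. Within each line the 3 libraries of these genes were close together, and the lines stood clearly apart. C11orf86 was at 65.1, 62.8 and 63.8 TPM in isoform 10 and at 16.3, 13.1 and 13.4 TPM in isoform 12. CIDEC, a protein of lipid droplet growth, was at 15.3, 14.0 and 14.9 TPM against 4.27, 3.45 and 3.69 TPM. The log2 differences were -2.16 ± 0.11 for ACSL5, -2.09 ± 0.14 for C11orf86 and -1.71 ± 0.13 for CIDEC (SE). In the authors' deposited table of isoform 10 against the parental cells, the log2 fold change of IL32 is 6.13 and that of ACSL5 is 6.20. In the authors' deposited table of isoform 12 these are 2.32 and 3.51.

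AQP7P3, a pseudogene of the aquaglyceroporin AQP7, completed the 12 genes that were lowest in isoform 12, with a log2 difference of -2.22 ± 0.19 (SE). Its reads may be shared with AQP7 copies of near-identical sequence, so its level is uncertain.

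**Figure D2:**
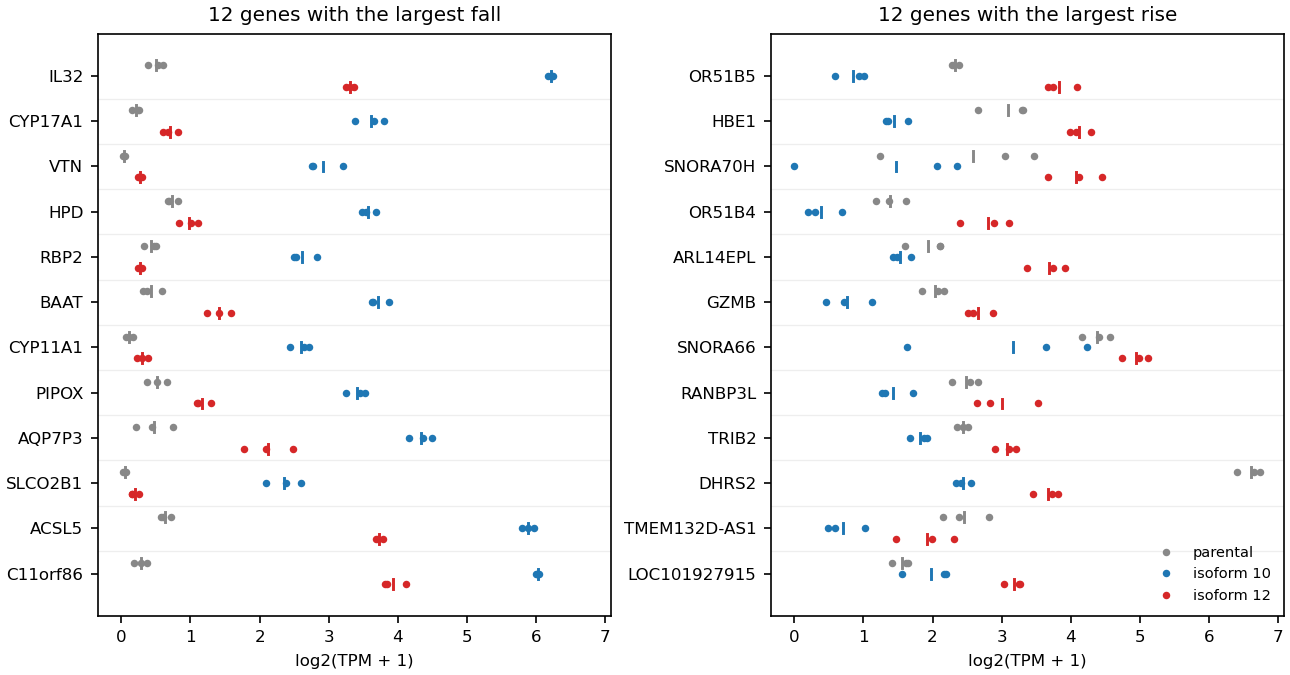
Level on the log2(TPM + 1) scale in each library for the 12 genes lowest (left) and the 12 genes highest (right) in isoform 12 among the called genes, with parental, isoform 10 and isoform 12 libraries as points and their means as bars. The isoform 10 points stand to the right of all isoform 12 points on the left panel, and to their left on the right panel.

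Some of the 63 lower genes carry in their promoter the letters that HNF4A is known to bind, and these promoters are shown because their genes were called lower in isoform 12. The search covered 250 bases before to 50 bases after each RefSeq start (GRCh38.p14) on both strands, for CAAAGTCCA and for CAAAGGTCA, which share their first 5 letters. CAAAGTCCA was found in 135 of 35116 promoters (0.384%) and CAAAGGTCA in 143 (0.407%). Among the 15051 promoters of tested genes, from which the called genes come, the shares were 0.319% and 0.286%. For 41 of the 63 genes the table holds promoters, 68 in all. CAAAGTCCA was in 4 of these 68 (5.88%), those of APOBEC1, PIPOX, SDCBP2 and SLCO2B1. CAAAGGTCA was in 2 (2.94%), those of ENO3 and VTN. None of the 10 promoters of 7 genes called higher held either motif. At the shares among tested genes a match in so few promoters was unlikely, so this does not set the 2 directions apart. A match describes the letters in this window and is not a measured binding site. Below, each promoter is printed 5′ to 3′ on its gene's strand with the motif in capitals, which here reads as TGGACTTTG or TGACCTTTG where it lies on the other strand. The intervals are chr17:29042891-29043190 (PIPOX, plus strand), chr11:75159582-75159881 (SLCO2B1, plus strand), chr17:28370258-28370557 (VTN, minus strand) and chr12:7665859-7666158 (APOBEC1, minus strand).
PIPOX: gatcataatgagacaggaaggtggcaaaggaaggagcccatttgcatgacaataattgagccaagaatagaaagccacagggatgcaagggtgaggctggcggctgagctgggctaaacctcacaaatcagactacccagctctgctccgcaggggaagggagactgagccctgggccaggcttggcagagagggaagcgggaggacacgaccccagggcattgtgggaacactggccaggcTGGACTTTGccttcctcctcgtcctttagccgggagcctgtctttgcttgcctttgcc
SLCO2B1: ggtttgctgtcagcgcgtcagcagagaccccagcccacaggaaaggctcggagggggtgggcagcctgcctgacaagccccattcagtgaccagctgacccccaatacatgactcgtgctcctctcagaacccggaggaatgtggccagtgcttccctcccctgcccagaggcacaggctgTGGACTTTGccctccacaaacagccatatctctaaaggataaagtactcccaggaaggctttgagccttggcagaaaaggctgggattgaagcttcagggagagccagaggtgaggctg
VTN: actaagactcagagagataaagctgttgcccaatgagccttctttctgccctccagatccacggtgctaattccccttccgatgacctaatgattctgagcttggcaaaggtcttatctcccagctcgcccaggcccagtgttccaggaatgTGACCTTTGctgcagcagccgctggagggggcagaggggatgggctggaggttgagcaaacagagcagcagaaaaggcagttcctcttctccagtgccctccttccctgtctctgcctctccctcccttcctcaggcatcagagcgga
APOBEC1: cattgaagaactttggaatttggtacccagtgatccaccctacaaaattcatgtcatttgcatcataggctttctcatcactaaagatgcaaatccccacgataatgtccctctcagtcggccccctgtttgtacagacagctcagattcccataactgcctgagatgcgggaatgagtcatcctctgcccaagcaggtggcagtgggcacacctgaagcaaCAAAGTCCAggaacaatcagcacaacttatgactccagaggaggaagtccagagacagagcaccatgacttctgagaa

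The motif begins 8 bases before the start of PIPOX, 69 before that of SLCO2B1, 98 before that of VTN and 28 before that of APOBEC1. APOBEC1, the editing enzyme of intestinal APOB mRNA, was at 14.0, 13.8 and 12.2 TPM in isoform 10 and at 2.36, 3.65 and 4.36 TPM in isoform 12, a log2 difference of -1.71.

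Other called genes act at the intestinal surface or in detoxification. ANPEP, the brush border aminopeptidase N, was at 3.62, 3.38 and 4.81 TPM in isoform 10 and at 0.235, 0.374 and 0.289 TPM in isoform 12, a log2 difference of -1.92 ± 0.10 (SE, adjusted p = 1.51e-14, limma). CYP1A1, a cytochrome P450 of aromatic hydrocarbons, was at 15.9, 17.9 and 15.4 TPM against 5.34, 7.36 and 5.06 TPM. ABCG2, an apical efflux pump, was at 12.7, 12.0 and 13.5 TPM against 4.70, 5.73 and 5.47 TPM. In these genes the isoform 12 libraries lay between the parental mean and the isoform 10 libraries. SDCBP2, a PDZ protein of the syntenin family, was at 3.96, 2.95 and 4.27 TPM against 0.981, 0.808 and 1.12 TPM.

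The following genes lie outside the rule for named genes and were chosen after their values were seen. VIPR1, a receptor for vasoactive intestinal peptide, was at 67.7, 57.5 and 56.0 TPM in isoform 10 and at 16.2, 13.3 and 15.8 TPM in isoform 12. NAT2, an arylamine acetyltransferase of liver and gut, was at 11.2, 8.75 and 9.30 TPM against 1.54, 2.10 and 1.52 TPM. S100A14, a calcium-binding protein of epithelia, was at 134, 135 and 125 TPM against 47.9, 51.0 and 56.0 TPM. These genes had no overlapping libraries, with log2 differences of -1.93 for VIPR1, -1.98 for NAT2 and -1.33 for S100A14. The sulfiredoxin gene SRXN1 was the most abundant gene called lower, with means of 253 TPM in isoform 10 and 116 TPM in isoform 12. ACAA2, a thiolase of mitochondrial fatty acid oxidation, had means of 132 and 64.0 TPM, and PAPSS2, which makes the sulfate donor of conjugation reactions, had 23.6 and 10.5 TPM. SEPT5, GP1BB and their readthrough SEPT5-GP1BB overlap on chromosome 22 between 19714464 and 19724772, so their 3 calls are not independent; SEPT5 had means of 23.0 and 7.11 TPM. SNORA59A and SNORA59B carry the same value in every library and count as 2 of the 63.

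Of the 4 largest higher values, 3 belonged to genes that lie together on the minus strand of chromosome 11, and the other was that of SNORA70H. In the GENCODE annotation of GRCh38.p12, HBE1, the embryonic epsilon globin, overlaps both OR51B5 and OR51B4, which are olfactory receptor genes and do not overlap each other. HBE1 spans 5268345 to 5505652, OR51B4 spans 5301014 to 5301946 and OR51B5 spans 5303444 to 5505652. OR51B5 was at 0.511, 1.01 and 0.906 TPM in isoform 10 and at 11.7, 16.0 and 12.4 TPM in isoform 12, with a log2 difference of 2.99 ± 0.16 (SE, adjusted p = 1.51e-14, limma). HBE1 was at 1.52, 2.13 and 1.55 TPM against 14.9, 18.6 and 15.8 TPM, and OR51B4 at 0.229, 0.610 and 0.143 TPM against 4.28, 7.58 and 6.40 TPM. The isoform 12 libraries of all 3 genes were above every isoform 10 library. Parental means were 4.03 TPM for OR51B5, 7.68 TPM for HBE1 and 1.64 TPM for OR51B4, which is between the lines in each case. HBG2 and OR51B2, in the same stretch, were under the filter at means of 0.271 and 0.0142 TPM in isoform 10 and 1.51 and 0.753 TPM in isoform 12. HBB, the adult beta globin on the same strand, had the opposite sign at a log2 difference of -0.27 (adjusted p = 0.044, limma). Transcripts of these overlapping genes share sequence, so how the reads were divided among them is uncertain.

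Among the other genes called higher, GZMB, a serine protease best known from cytotoxic lymphocytes, was at 1.19, 0.641 and 0.381 TPM in isoform 10 and at 6.32, 4.69 and 4.98 TPM in isoform 12. The T cell marker CD3E was under 0.01 TPM in the mean of either line. ARL14EPL was at 2.21, 1.80 and 1.68 TPM against 9.36, 14.1 and 12.4 TPM, and TRIB2, a pseudokinase, at 2.68, 2.78 and 2.20 TPM against 7.62, 6.49 and 8.28 TPM. The log2 differences were 1.88 ± 0.18 for GZMB, 2.15 ± 0.20 for ARL14EPL and 1.25 ± 0.09 for TRIB2 (SE). RANBP3L and LOC101927915 were also called, at 1.57 ± 0.21 and 1.21 ± 0.19. Some calls depended on single libraries or settings. DHRS2, a short-chain dehydrogenase, was at 4.34, 4.08 and 4.88 TPM in isoform 10, at 13.1, 9.90 and 12.3 TPM in isoform 12 and at a mean of 96.4 TPM in the parental cells. Its libraries did not overlap between the lines, with a log2 difference of 1.23 ± 0.41 (SE, adjusted p = 0.0338, limma), but the call ended whichever of the 6 libraries was left out (adjusted p of 0.0543 to 0.0891, limma), while the log2 difference stayed between 1.15 and 1.34. Leaving out isoform 3 replicate 1, which bears on this comparison only through the shared spread, gave the same difference for DHRS2 with an adjusted p of 1.28e-08 (limma). SNORA70H lost its call without isoform 10 replicate 3 (adjusted p = 0.215, limma) and without isoform 12 replicates 2 or 3. SNORA66 lost it without isoform 10 replicate 1 (adjusted p = 0.0641, limma) and with only the compared groups in the fit (adjusted p = 0.108, limma), and TMEM132D-AS1 without isoform 12 replicate 3 (adjusted p = 0.0548, limma). A pseudocount of 0.1 TPM ended the calls of SNORA70H and TMEM132D-AS1 (adjusted p = 0.0908 and 0.0534, limma). Without the filter on low values, SNORA70H and DHRS2 lost theirs (adjusted p = 0.0813 and 0.0837, limma). With all libraries the log2 difference of SNORA70H was 2.61 ± 0.86 and that of SNORA66 was 1.78 ± 0.43 (SE). SNORA70H rests on very few reads, with mean normalised counts of 2.47 and 6.33 in the authors' comparisons of isoforms 10 and 12 with the parental cells.

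The same change at the C-terminus is present in the other N-terminal forms, as isoform 9 against 7, 3 against 1 and 6 against 4. Each of these isoforms is again 1 doxycycline-treated line with 3 libraries, and none of them is a library of isoform 10 or 12. All are in the same fit, however, and share in its estimate of the spread and in the filter. Isoforms 7 and 9 are also P2 forms, 1 and 3 are P1 forms, and 4 and 6 are P1 forms with exon 1B, by the standard nomenclature. Of the 63 genes called lower in isoform 12, 33 (52.4%) were called lower in isoform 9 against 7, where they made up 64.7% of the 51 genes called lower (0.34% of tested genes). In isoform 3 against 1, 48 (76.2%) were called lower, which is 27.3% of the 176 called lower there (1.17%). In isoform 6 against 4, 4 (6.35%) were called lower, which is 14.3% of 28 (0.187%). In both 9 against 7 and 3 against 1 at least 33 of the 63 genes were thus called in the same direction. Opposite calls among the 63 numbered 0 in 9 against 7, 1 in 3 against 1 (LOC105373622, at 1.13, adjusted p = 0.0394, limma) and 2 in 6 against 4. C11orf86, NAT2, CIDEC and S100A14 were called lower in all 4 pairs. In total, 27 genes were called lower in 12 against 10, 9 against 7 and 3 against 1, among them IL32, VTN, HPD, BAAT, PIPOX, SLCO2B1, ACSL5, ANPEP, APOBEC1, CYP1A1, CREB3L3 and HEPH. Of the 17 higher genes, 0 were called higher in 9 against 7 (limma), where 12 genes were (0.08%), and at an unadjusted p under 0.05 there 5 of the 17 were higher and 2 were lower. In turn, 2 of the 17 were called higher in 3 against 1, where 41 were (0.273%), and 1 in 6 against 4, where 46 were (0.307%). In the opposite direction, 1 of the 17 was called in 3 against 1 and 6 in 6 against 4.

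**Figure D3:**
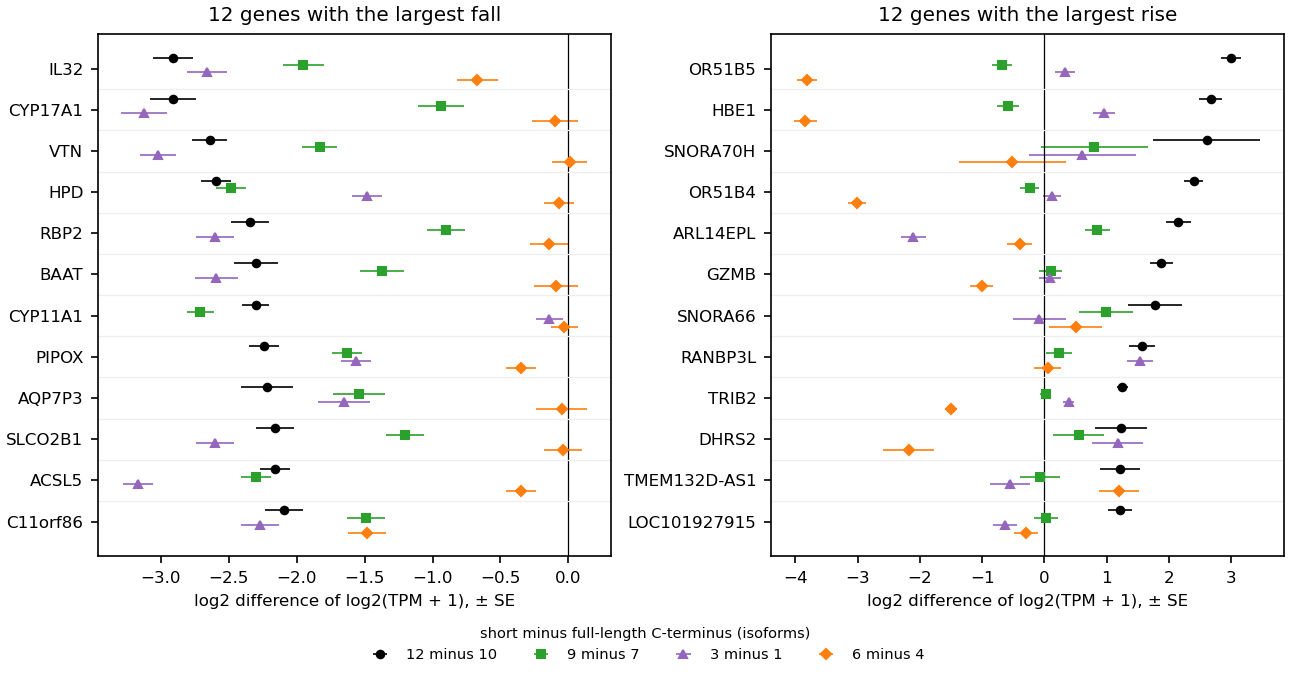
Log2 difference between the short and the full-length C-terminus, ± SE, for the same 24 genes in isoforms 12 minus 10, 9 minus 7, 3 minus 1 and 6 minus 4. In 6 minus 4 most of the genes on the left lie near 0, with C11orf86 at -1.48, and OR51B5, HBE1 and OR51B4 on the right lie far below 0.

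Whether the differences themselves differed was tested gene by gene. Against 9 minus 7, 31 genes passed (0.207%); against 3 minus 1, 110 (0.733%); and against 6 minus 4, 174 (1.16%). Values further below 0 in 12 minus 10 passed for 0.107%, 0.26% and 0.74% of tested genes in these tests. Of the 63 lower genes, 6 were lower in 12 minus 10 by more than in 9 minus 7. For 9 genes it was by more than in 3 minus 1, and for 43 by more than in 6 minus 4. Against 3 minus 1, another 4 went further in that pair. The 63 were chosen for low values of 12 minus 10, and the same values enter these tests. The choice thus favours genes further below 0 in 12 minus 10, so these counts cannot be read against the shares of tested genes. Several of the 63 genes were already about as low in isoform 4 as in the parental cells, so 6 minus 4 could hardly fall. Means in isoform 4 and the parental cells were 0.603 and 0.55 TPM for ACSL5 and 0.0374 and 0.0288 TPM for VTN. The 4 genes called lower in all pairs were above the parental mean in isoform 4, with C11orf86 at 3.9 TPM and CIDEC at 3.99 TPM. This limits the count of 43 and the overlap with that pair alike. CYP17A1 was lower by a further 1.97 in 12 minus 10 than in 9 minus 7, where it ran from a mean of only 1.2 TPM in isoform 7 to 0.146 TPM in isoform 9. CYP11A1 showed the P2 forms apart: it ran from 6.31 to 0.0981 TPM in 7 and 9, but from 0.115 to 0.0112 TPM in 1 and 3, and the difference from 3 minus 1 was -2.16. LOC105378665 had the largest negative difference from 9 minus 7, at -2.61, and LOC105373622 from 3 minus 1, at -2.93. Both rest on few reads. Their mean normalised counts were 9.67 and 9.72 in the authors' comparison of isoform 10 with the parental cells, and 6.03 and 3.8 in that of isoform 12. On chromosome 11, OR51B5 differed by 3.67 from 9 minus 7, by 2.66 from 3 minus 1 and by 6.79 from 6 minus 4, where it ran the other way, from a mean of 31.3 TPM in isoform 4 to 1.33 TPM in isoform 6. HBE1 ran likewise from 43.8 to 2.14 TPM in 4 and 6. With the short C-terminus, OR51B5 was thus higher in 12 against 10 and lower in 6 against 4, and it was lower in 9 against 7 as well, at -0.68 (adjusted p = 0.00344, limma).

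ARL14EPL was higher in isoform 12 than in 10 but lower in isoform 3 than in 1, with means of 11.8 TPM in isoform 1 and 1.89 TPM in isoform 3 and a difference of 4.25 between the pairs. IGF2BP3, an mRNA-binding protein, and CHAC1, an enzyme of glutathione breakdown, differed from 3 minus 1 by 2.60 and 2.51, while their own log2 differences between isoforms 12 and 10 were 0.76 (adjusted p = 1.76e-07, limma) and 0.11 (adjusted p = 0.817, limma). SNORA47 and DHRS2 differed from 6 minus 4 by 4.40 and 3.41. SNORA47 itself did not pass between isoforms 12 and 10, at 1.56 (adjusted p = 0.188, limma). It rests on very few reads, with mean normalised counts of 1.63 and 2.35 in the authors' comparisons of isoforms 10 and 12 with the parental cells.

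Groups of genes with known roles were examined next, on the log2 scale and by the adjusted p alone unless a call is named. Their counts are read against the 7.83% of tested genes that passed lower and the 9.97% that passed higher, and against the median of 0.016 over all tested genes. Among 21 HNF4A targets of liver and gut, 5 were tested. VIL1, the microvillus protein villin, and LGALS4, an intestinal galectin, passed lower, at -0.62 ± 0.17 and -0.61 ± 0.17 (SE, adjusted p = 0.00759 and 0.0111, limma). VIL1 had 7.06, 5.51 and 6.55 TPM in isoform 10 and 3.57, 4.01 and 3.73 TPM in isoform 12. MTTP, which loads lipid onto APOB, was at -0.12 (adjusted p = 0.559, limma). Of the 21 targets 16 were under 1 TPM in all 6 libraries, so most of this list gave no test in either line.

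Of 24 genes of fatty acid activation and lipid droplets, 15 were tested, 8 passed lower, 2 passed higher and 5 did not pass, with a median of -0.18. ACSL5 and CIDEC were called, and CIDEB and GPAT3 passed at -0.71 ± 0.18 and -0.55 ± 0.06 (SE). ACSL3, another long-chain acyl-CoA synthetase, went the other way at 0.25. Of 20 brush border genes, 11 were tested and 6 passed lower, with a median of -0.22. Beside ANPEP and VIL1, SLC9A3R1, the scaffold that tethers apical transporters to ezrin, ran from 230, 212 and 231 TPM in isoform 10 to 138, 131 and 138 TPM in isoform 12. Its libraries stood clear of each other, at a log2 difference of -0.72 ± 0.08 (SE, adjusted p = 1.39e-07, limma). Of 15 tight junction genes, 14 were tested and 5 passed lower, from TJP3 at -0.47 ± 0.13 to F11R at -0.18 ± 0.04. The median was -0.18, and MARVELD2 was at 0.00. Leaving out 1 library at a time left 3 to 7 lower, and a fit of only the 6 compared libraries gave 3. Of 12 genes of colorectal epithelial identity, 9 were tested and 4 passed lower, led by KRT19 at -0.48 ± 0.04 (SE), while CDX2 was at 0.16 (adjusted p = 0.141, limma).

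Of 26 genes of xenobiotic metabolism, 10 were tested, 5 passed lower and 1 higher, with a median of -0.28. Next to CYP1A1, the sulfotransferase SULT1A1 passed at -0.78 ± 0.08 and CYP2S1 at -0.62 ± 0.07 (SE), and CYP1B1 passed higher at 0.26 ± 0.08. Of 20 apical and bile acid transporters, 6 were tested and ABCG2 alone passed. None of 11 tested nuclear receptor coregulators of 14 passed the adjusted p (limma), and 1 had an unadjusted p under 0.05; the values ran from NCOA3 at -0.15 to CREBBP at 0.13.

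Replication and mitosis genes were higher in the isoform 12 line by small amounts. All 25 of the list were tested and 21 passed higher, with a median of 0.32 and a range from AURKA at 0.13 (adjusted p = 0.17, limma) to RRM2 at 0.52 ± 0.09 (SE, adjusted p = 0.00012, limma). None was called, since none reached a log2 difference of 1. RRM2, a subunit of ribonucleotide reductase, was at 188, 192 and 150 TPM in isoform 10 and at 249, 262 and 247 TPM in isoform 12. PCNA, the sliding clamp of replication, was at 452, 454 and 398 TPM against 537, 556 and 538 TPM. The libraries did not overlap, and isoform 10 replicate 3 was the lowest for both. Leaving out 1 library at a time left 16 to 24 of the genes past the test. The parental means, 229 TPM for RRM2 and 567 TPM for PCNA, were nearer to isoform 12. CDKN1A, the p21 inhibitor of cyclin-dependent kinases, ran the other way, at 233, 217 and 230 TPM in isoform 10 and 124, 129 and 132 TPM in isoform 12. Its log2 difference was -0.82 ± 0.09 (SE, adjusted p = 3.01e-08, limma). Of the 20 p53 targets it belongs to, all tested, 4 passed lower and 1 higher, with a median of -0.02. Whether the level of CDKN1A or the growth of the lines has a part in the differences of other genes was not tested.

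**Figure D4:**
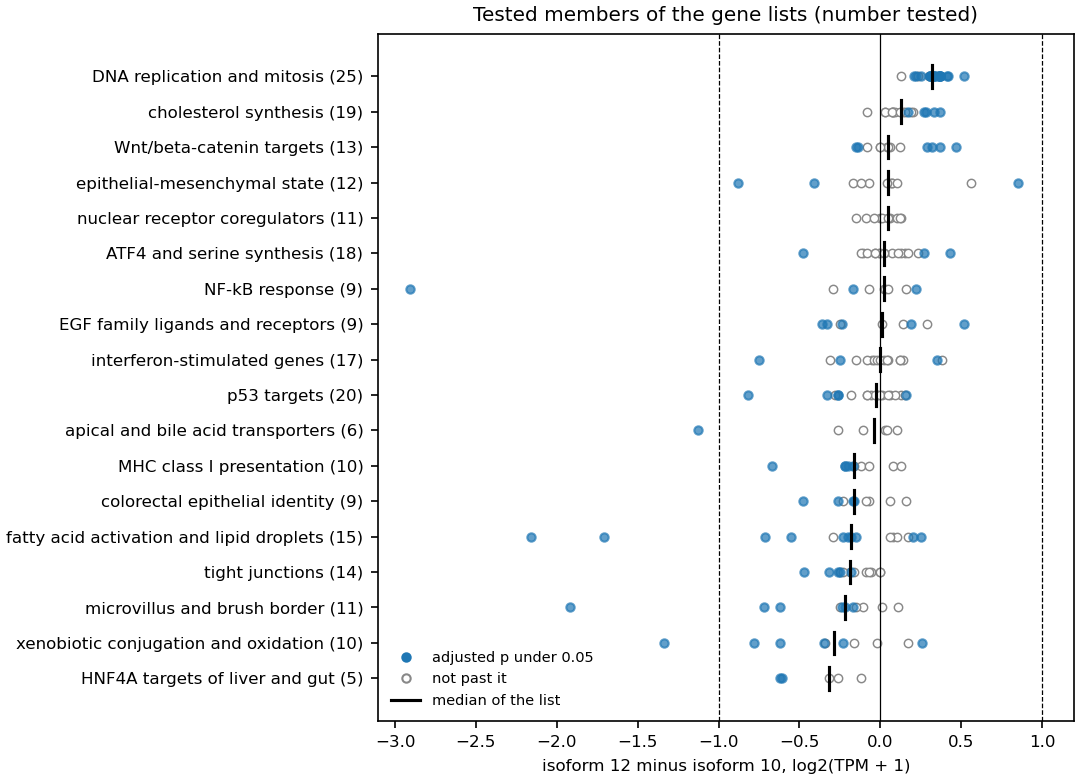
Log2 difference between isoforms 12 and 10 for the tested genes of each list, with 1 point per gene, filled where the adjusted p is under 0.05, and a bar at the median of the list. Dashed lines mark differences of -1 and 1. The replication and mitosis genes all lie above 0, and single genes such as IL32, ACSL5 and ANPEP lie far below the rest of their lists.

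Apart from IL32, no gene of the following immune, growth factor, Wnt, sterol and ATF4 lists was called. Of 28 interferon-stimulated genes, 17 were tested, 2 passed lower and 1 higher, with OAS1, an antiviral synthetase, at -0.75 ± 0.11 (SE) and IFITM1 at 0.38 (adjusted p = 0.149, limma). Of 12 genes of MHC class I presentation, 10 were tested and 5 passed lower, led by HLA-F at -0.67 ± 0.13 (SE), while NLRC5, their transactivator, was at 0.13 (adjusted p = 0.302, limma). HLA genes are close paralogs and their reads may be exchanged. Of 16 NF-kB response genes, 9 were tested, 2 passed lower and 1 higher; without IL32 the lower one was NFKB2 at -0.17. Of 12 EGF family genes, 9 were tested, 3 passed lower and 2 higher, from the receptor ERBB2 at -0.36 ± 0.06 to the ligand NRG1 at 0.52 ± 0.11 (SE). Of 17 Wnt targets, 13 were tested, 2 passed lower and 4 higher, from TCF7 at -0.15 to DKK1 at 0.47. DKK1, a secreted Wnt inhibitor, was at 428, 419 and 424 TPM in isoform 10 and at 587, 577 and 602 TPM in isoform 12, which is a clear separation at a high level. Of 20 cholesterol synthesis genes, 19 were tested and 5 passed higher, up to HMGCS1 at 0.37 ± 0.10 (SE), with PMVK lowest at -0.08. Of 19 genes of the ATF4 response and serine synthesis, 18 were tested. Of these, 1 passed lower, ATF3 at -0.48, and 2 higher, up to PHGDH at 0.43. With only the 6 compared libraries in the fit, 1 cholesterol synthesis gene passed higher. Wnt targets then had 1 higher and 0 lower, EGF family genes 1 and 1, and NF-kB response genes 0 and 2. MHC class I presentation had 3 lower, and interferon-stimulated genes 2 higher and 3 lower. The ATF4 counts did not change. Leaving out 1 library at a time gave 1 to 6 cholesterol synthesis genes higher.

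In the list of epithelial-mesenchymal state, 12 of 18 genes were tested, 2 passed lower and 1 higher. VIM, the mesenchymal filament vimentin, was at 10.2, 10.3 and 10.9 TPM in isoform 10 and at 18.7, 22.5 and 17.9 TPM in isoform 12, a log2 difference of 0.85 ± 0.22 (SE). CAVIN2, a protein of caveolae, was at 4.80, 4.85 and 7.18 TPM against 2.11, 2.51 and 3.09 TPM, a log2 difference of -0.88 ± 0.17 (SE, adjusted p = 0.000394, limma). CAVIN2 ran against the other pairs, where the short form was higher, at 0.90 in 9 minus 7, 1.19 in 3 minus 1 and 1.55 in 6 minus 4. Among 14 genes picked from earlier results of these same libraries as changing repeatedly, 5 were called lower and 1 higher, which is not independent evidence of their direction.

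Of the markers of other cell types, CD68 and the adhesion molecule PECAM1 passed lower, at -0.75 ± 0.11 and -0.47 ± 0.12 (SE). The summed TPM of the 6 leukocyte markers ran from 17.2 to 19.4 in isoform 10 and from 10.7 to 11.3 in isoform 12. That of the 5 endothelial markers ran from 3.06 to 3.70 and from 2.18 to 2.40, and that of the 7 fibroblast markers from 12.8 to 14.0 and from 10.8 to 12.8. PTPRC, CD3E, CDH5 and COL1A2 had means under 0.1 TPM in both lines, and none of the markers was at 0 in all 6 libraries.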

How the data were processed

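RNA-seq of HCT116 cells was analysed from 13 deposited tables of 45446 rows, 1 for the parental group and 1 for each of 12 lines. Each table gives TPM per library, which the authors normalised to a fixed sum, and the tables share 1 scale. Poly(A) RNA was used with a directional kit, per the labels' protocols. The submitters' processing notes name Trimmomatic 0.36, FastQC 0.11.5, kallisto 0.44.0, DESeq2 1.22.2 and GRCh38.p12, but the annotation they used is not given in the sources used here. Comparisons with the parental cells that the authors deposited hold a log2 fold change, its standard error, a statistic (a score), a p-value and mean normalised counts (a signal scale), per the file headers. They entered no fit.

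TPM are not counts, so limma 3.58.1 in R 4.3.3 was fitted on log2(TPM + 1), with all 39 libraries, 13 group coefficients and 26 residual degrees of freedom. A fold change on this scale understates that of low genes. Genes averaging under 1 TPM across all libraries were left out, and p-values were adjusted by Benjamini-Hochberg over 15002 genes. The median residual SD was 0.0936. In all, 77 tested rows repeat another tested row. Named genes were HNF4A, the 12 genes lowest and the 12 highest in isoform 12 among those called, called genes of the lists, the top 5 of each test of a difference between pairs, and the extreme members of lists without a call. The members and lists were chosen with earlier results of these data known. Alternatives covered the pseudocount, the filter, the scaling, the libraries fitted, repeated rows, the replicate block and each library left out. Columns of isoforms 4 and 5 carry no replicate number. Gene positions are from GENCODE and promoters from RefSeq.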

Additional observations from a re-analysis of the deposited data

Results flagged for a closer look

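Isoform pairs were set against each other by a test of the difference between their differences (limma, adjusted p under 0.05 and at least 1 on the log2 scale), and each named gene that passed is listed with the difference of isoform 12 minus 10 from the other pair. These are values with no weighing of causes. Many of the named genes were chosen for a large difference between isoforms 12 and 10, and that difference also enters these tests.

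Against 9 minus 7, the difference was below 0 and came to -2.61 for LOC105378665, -1.97 for CYP17A1, -1.78 for CAVIN2 and -1.44 for RBP2. Against 9 minus 7, the difference was above 0 and came to 3.67 for OR51B5, 3.26 for HBE1, 2.65 for OR51B4, 1.78 for GZMB, 1.34 for RANBP3L, 1.29 for ARL14EPL and 1.23 for TRIB2. Another was 1.18 for LOC101927915.

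Against 3 minus 1, the difference was below 0 and came to -2.93 for LOC105373622, -2.16 for CYP11A1, -2.07 for CAVIN2, -2.02 for LOC105378665 and -1.10 for HPD. Against 3 minus 1, the difference was above 0 and came to 4.25 for ARL14EPL, 2.66 for OR51B5, 2.60 for IGF2BP3, 2.51 for CHAC1, 2.29 for OR51B4, 1.86 for SNORA66 and 1.83 for LOC101927915. Further values of this sign were 1.79 for GZMB, 1.78 for TMEM132D-AS1, 1.72 for HBE1, 1.38 for SDCBP2 and 1.02 for ACSL5.

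Against 6 minus 4, the difference was below 0 and came to -3.25 for LOC105373622, -2.81 for CYP17A1, -2.65 for VTN, -2.52 for HPD, -2.43 for CAVIN2, -2.34 for VIM and -2.27 for CYP11A1. Further values of this sign were -2.24 for IL32, -2.22 for BAAT, -2.20 for RBP2, -2.16 for AQP7P3, -2.12 for SLCO2B1, -1.90 for PIPOX and -1.81 for ACSL5. Further values of this sign were -1.77 for ANPEP, -1.35 for OAS1, -1.29 for ABCG2, -1.11 for CYP1A1 and -1.08 for SDCBP2. Against 6 minus 4, the difference was above 0 and came to 6.79 for OR51B5, 6.51 for HBE1, 5.41 for OR51B4, 4.40 for SNORA47, 3.41 for DHRS2, 2.89 for GZMB and 2.75 for TRIB2. Further values of this sign were 2.55 for ARL14EPL, 1.52 for RANBP3L and 1.51 for LOC101927915.

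A value below 0 can mean that a gene was lowered further between isoforms 12 and 10 or raised in the other pair. It can also arise where the gene had little room to fall in the other pair, as for VTN at 0.0374 TPM in isoform 4. VIM was higher in isoform 12 than in isoform 10, at 0.85, yet its value against 6 minus 4 was -2.34. It was higher still in isoform 6 than in isoform 4, at 3.19. ACSL5 went the other way against 3 minus 1, at 1.02, since it fell further there.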

How the results depend on the processing

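The count of 80 genes between isoforms 12 and 10 was 46 with a filter of 5 TPM, 123 with a pseudocount of 0.1 TPM and 2670 with no minimum difference. These settings gave 10, 29 and 1495 genes higher against 17. A filter of 5 TPM gave 36 genes lower against 63, and no minimum difference gave 1175. Against 9 minus 7 the count of 31 became 13, 47 and 406, against 3 minus 1 the count of 110 became 56, 173 and 2210, and against 6 minus 4 the count of 174 became 90, 275 and 2391. The filter of 5 TPM tests fewer genes, and the smaller pseudocount widens the differences of low genes. Leaving out 1 library at a time gave 76 to 86 genes between isoforms 12 and 10, 27 to 48 against 9 minus 7, 90 to 114 against 3 minus 1 and 161 to 184 against 6 minus 4. The count of 48 came without isoform 9 replicate 1, and the cause was not tested. The difference in HNF4A mRNA changed sign without isoform 12 replicate 3 (-0.0124) and without isoform 10 replicate 2 (-0.00183), within a range of -0.0124 to 0.0907. Of 79 results on single genes, 72 kept their call under every alternative run, 7 gained or lost it under at least 1, and 0 reversed. The 7 were SNORA70H, SNORA66, DHRS2, TMEM132D-AS1, CAVIN2, SNORA47 and, against 9 minus 7, LOC105378665.

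With the replicate number as a block, 78 genes were called between isoforms 12 and 10, 35 against 9 minus 7 and 109 against 3 minus 1. No block could be fitted against 6 minus 4, since the isoform 4 columns carry no number. The deviations of same-numbered libraries of isoforms 10 and 12 correlated at 0.011, 0.038 and 0.091 across genes. Isoform 12 replicates 2 and 3 correlated best with the isoform 10 library of the same number. Isoform 12 replicate 1 correlated best with isoform 10 replicate 2, at 0.048. All of these values are small, and whether a shared number marks a shared batch cannot be told from them.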
